A study of Mus musculus with 165 samples.

Results

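The genes of 8 transcription factors that direct the myeloid lineage or the blood progenitor state were followed through 4 maps of chromosome compartments in mouse cells. Their symbols are Sfpi1, Cebpa, Cebpe, Irf8, Runx1, Myb, Gata2 and Meis1. A position on the mouse genome build mm9 was given for each gene, and the 25 kb bins that start within 150 kb of it were taken as the gene's window. This gave 100 bins, 12 or 13 for each gene, out of 100644 bins compared in all 4 maps. No measured value entered the choice of bins. The genes themselves were chosen with earlier results of these data known.

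The maps came from in situ Hi-C, in which DNA ends that lie close together in the nucleus are ligated and sequenced in pairs. The series holds 165 samples, of which 17 are Hi-C libraries, and it asks how calcium signalling alters nuclear architecture. The cells were ECOMG cells, a GM-CSF-dependent mouse myeloid progenitor line of the C57BL/6 strain. Every group carried the human E2A_ER_Pbx1b transgene and was labelled wild type otherwise. The progenitor group was 7 libraries, and the untreated neutrophil group was 8 libraries from 7 replicates of cells differentiated for 5 days without estradiol. Neutrophils activated with the calcium ionophore A23187 at 20 uM, with calcium chloride raised to 1 mM, were mapped after 15 min and after 30 min, with 1 sample each. All groups are cultures of 1 cell line, so nothing here was measured in neutrophils taken from an animal. No RNA was measured in these files, and the labelled cell types could not be checked against marker genes.

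Each group was deposited as 1 track of the first principal component (PC1) of its Hi-C contact matrix. PC1 is a score without a unit, and it was scaled so that every chromosome has a mean of zero. Values above zero are called compartment A, the usual name for gene-rich and active chromatin, and values below zero compartment B, the name for inactive chromatin. A PC1 value averages over all cells of a culture, so a change in every cell and a change in some of the cells cannot be told apart. Libraries had been pooled before the tracks were made, so no difference has a replicate check and no p-value is given. The SD printed after a mean is the spread over the bins of 1 window. Neighbouring bins share reads and are not replicates. The depth of each track is unknown. Progenitor and untreated libraries are marked as re-analysed, and per the labels' protocols all of them were sequenced on the same HiSeq model, while for the activated ones a later HiSeq model or NovaSeq is named, with no word on which served which time. Activation and sequencing batch therefore cannot be told apart. Whether an activated track holds more than 1 library is not stated. The activated samples carry different replicate labels, 2 for 15 min and 1 for 30 min, so time goes with replicate between them.

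Blood cell fate is set by transcription factors that act in order and repress or reinforce each other. PU.1, encoded by Sfpi1, opens myeloid enhancers, C/EBPalpha commits progenitors to the granulocyte and monocyte lineages, and C/EBPepsilon drives the last steps of granulocyte maturation. IRF8 favours monocytes and dendritic cells over granulocytes. RUNX1, MYB, GATA2 and MEIS1 maintain stem and progenitor cells, and MEIS1 binds DNA together with PBX proteins. Genes of a cell's active programme usually lie in compartment A, and long-silenced genes usually in B.

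Promoter sequences of 3 members are shown for the base composition of their start sites. RefSeq (GRCm38.p6) promoters of 300 bases, from 250 before to 50 after a gene's start, were found for 6 of the 8 genes, in 9 entries. The 3 shown belong to the gene whose window differed most between tracks (Irf8), the gene whose own bins dipped inside a high window (Gata2) and the gene that lay in B throughout (Meis1). Capitals mark each CG dinucleotide, the motif searched, which reads the same on both strands. Coordinates of these sequences are on GRCm38, another build than the PC1 tracks.
Irf8 promoter, GRCm38.p6 chr8:120736108-120736407, plus strand: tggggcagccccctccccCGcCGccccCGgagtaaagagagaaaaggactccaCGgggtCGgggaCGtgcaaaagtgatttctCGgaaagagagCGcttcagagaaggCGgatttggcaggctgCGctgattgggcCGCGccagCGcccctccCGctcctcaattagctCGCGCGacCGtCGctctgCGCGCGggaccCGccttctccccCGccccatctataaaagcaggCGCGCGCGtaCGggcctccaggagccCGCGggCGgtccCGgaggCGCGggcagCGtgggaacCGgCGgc
Gata2 promoter, GRCm38.p6 chr6:88193641-88193940, plus strand: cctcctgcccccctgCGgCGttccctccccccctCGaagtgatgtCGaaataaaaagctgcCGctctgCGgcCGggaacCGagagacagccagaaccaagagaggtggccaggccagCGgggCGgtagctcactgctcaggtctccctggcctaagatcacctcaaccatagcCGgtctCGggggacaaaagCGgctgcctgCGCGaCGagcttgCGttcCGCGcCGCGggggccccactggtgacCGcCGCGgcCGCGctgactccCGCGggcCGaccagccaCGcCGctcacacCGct
Meis1 promoter, GRCm38.p6 chr11:19018920-19019219, minus strand: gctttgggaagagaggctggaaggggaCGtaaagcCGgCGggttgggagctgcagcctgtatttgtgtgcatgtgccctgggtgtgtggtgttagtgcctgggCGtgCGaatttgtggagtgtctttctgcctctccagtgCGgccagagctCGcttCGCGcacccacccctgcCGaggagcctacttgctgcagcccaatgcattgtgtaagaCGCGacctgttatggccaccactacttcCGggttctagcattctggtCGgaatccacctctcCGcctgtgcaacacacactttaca
The Irf8 sequence holds 38 CG dinucleotides and is 70.0% G or C. The Gata2 sequence holds 32 and is 69.3% G or C, and the Meis1 sequence holds 15 and is 58.3% G or C. Over all 32851 promoters of the table the median is 7 CG dinucleotides. As many as in Irf8 were present in 4.95% of those promoters, as many as in Gata2 in 9.52%, and as many as in Meis1 in 34.6%. For Irf8 and Gata2 the first of their 2 entries is shown. The second Irf8 entry holds 8 CG dinucleotides, fewer than Meis1, and the second Gata2 entry holds 29, so these counts do not sort the genes by compartment. The 9 entries of the 6 genes ranged from 2, in a Runx1 entry, to 40 in Myb, with a median of 29. Methylation of these bases was not measured.

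Of the 8 genes, 7 had a mean PC1 above zero in all 4 tracks, and Meis1 was below zero in all 4. Of all 98415 windows of 13 bins on the 20 chromosomes, 43.4% were in A in progenitors, 43.9% in untreated neutrophils, 47.6% after 15 min and 44.9% after 30 min. By single bins, 85 of the 100 were above zero in every track, the 13 bins of Meis1 were below zero in every track, and 2 bins of Irf8 had mixed signs. The 7 genes in A lay between 0.877 and 1.64 in progenitors, between 0.763 and 1.82 in untreated neutrophils, between 0.894 and 1.47 after 15 min and between 0.892 and 1.56 after 30 min. By mean PC1, Cebpe was at the top of the order and Cebpa was the lowest of the A genes in each track. In progenitors the means of Gata2, Irf8, Sfpi1 and Runx1 lay within the spread over bins of Irf8, 0.411, and in untreated neutrophils Runx1 and Myb differed by less than the spread of either. The 5 A genes other than Irf8 and Cebpa lay between 1.36 and 1.82 in the untreated track and between 1.36 and 1.47 after 15 min.

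**Figure D1:**
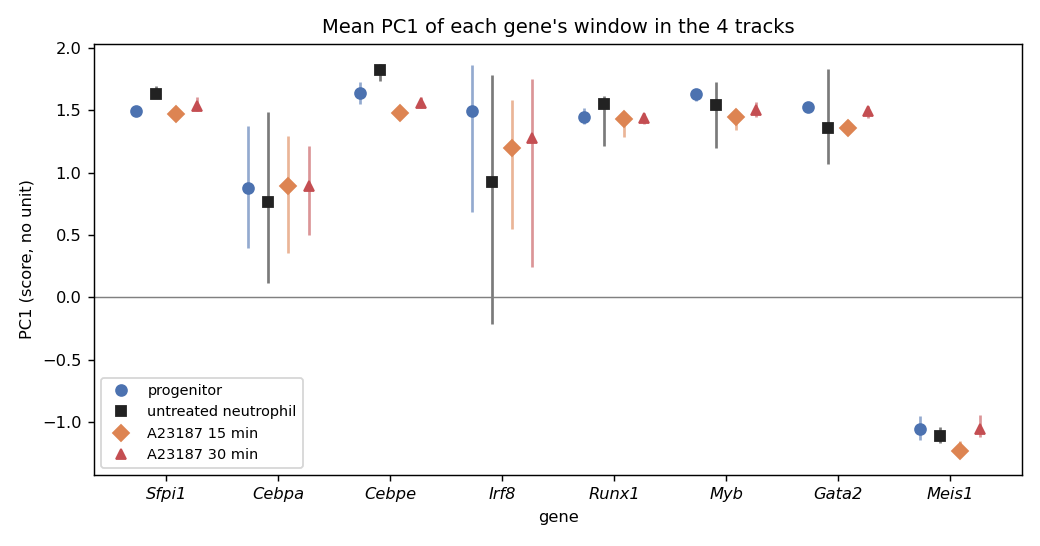
Mean PC1 (a score, vertical axis) of the bins within 150 kb of each of the 8 genes (horizontal axis) in the 4 tracks; symbols are means over 12 or 13 bins and lines run from the lowest to the highest bin. The symbols of 7 genes lie above zero and those of Meis1 between -1.23 and -1.06, while the lines of Irf8 and Cebpa are long and that of Irf8 in the untreated track reaches below zero.

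Among the myeloid factors, the window of Sfpi1 (chromosome 2, 90800001 to 91100000) was high and flat. Its mean PC1 was 1.49 ± 0.0208 in progenitors, 1.63 ± 0.0292 in untreated neutrophils, 1.47 ± 0.0287 after 15 min and 1.53 ± 0.0406 after 30 min (SD over 12 bins). All 12 bins were highest in the untreated track, and the spread over bins was below 0.05 in each track. On its own chromosome the window's mean percentile was 93.6 in progenitors and 97.8 in untreated neutrophils. The untreated value was higher than the progenitor value by 0.142, and the 15 min and 30 min values were lower than the untreated one with differences of -0.160 and -0.100. With quantile-normalized tracks, all brought to the distribution of the untreated one, these became 0.0352 and 0.0295. The left flank, the bins up to 1 Mb before the window, differed more: it averaged 0.479 in progenitors, 0.926 in untreated neutrophils, 0.769 after 15 min and 0.645 after 30 min. The right flank stayed between 1.48 and 1.60. In the RefSeq order Sfpi1, listed as Spi1, lies between Slc39a13 and Mybpc3.

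Cebpa (chromosome 7, 35750001 to 36075000) sat on a narrow peak of PC1. The mean over its 13 bins was 0.877 ± 0.350 in progenitors, 0.763 ± 0.534 in untreated neutrophils, 0.894 ± 0.306 after 15 min and 0.892 ± 0.237 after 30 min. The bin at the gene position stood far above that mean, at 1.37, 1.48, 1.29 and 1.21 in the same order of tracks. The flanks up to 1 Mb away averaged between -0.122 and 0.289. The window exceeded their mean by 0.925, 0.793, 0.848 and 0.682, the largest such excess of the 8 genes in each track. These averages mix stretches of A and of B. In the untreated track the bin centred 887.5 kb to the left was at 1.52, and the one 537.5 kb to the left at -0.932. In the untreated track the peak was both higher at the gene and lower beside it. The 4 bins from 35975001 to 36075000, each lower there than in progenitors by 0.25 or more, averaged 0.601 in progenitors, 0.246 in untreated neutrophils, 0.687 after 15 min and 0.717 after 30 min. Within them the bin from 35975001 to 36000000 had a PC1 of 0.396 in progenitors, 0.113 in untreated neutrophils, 0.613 after 15 min and 0.687 after 30 min. The difference of 0.575 between the untreated and 30 min tracks in that bin was the largest of any bin of the window in any pair of tracks. All 13 bins kept a value above zero in all 4 tracks. The domain list of the untreated track places Cebpa in an A domain of 525 kb, and the other 6 A genes in domains of 1625 kb or more.

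Cebpe (chromosome 14, 55200001 to 55500000) had the highest mean PC1 of the 8 genes in each track. Its mean PC1 over 12 bins was 1.64 ± 0.0554 in progenitors, 1.82 ± 0.0433 in untreated neutrophils, 1.47 ± 0.0173 after 15 min and 1.56 ± 0.0261 after 30 min. All 12 bins were highest in untreated neutrophils, and after 15 min all 12 were lower than in that track by 0.25 or more. The 15 min mean differed from the untreated one by -0.346, and the 30 min mean by -0.264. The 95th percentile of all bins lay in the same order of tracks, at 1.62 in progenitors, 1.67 in untreated neutrophils, 1.48 after 15 min and 1.54 after 30 min. The single highest bin of the genome did not, at 2.78, 2.32, 1.94 and 1.89. The part of the scale in the difference at Cebpe was not tested directly. After quantile normalization the differences were -0.149 after 15 min and -0.126 after 30 min, the same direction and below 0.25 in size. By percentile on its chromosome the window stood at 92.1, 94.4, 91.9 and 91.2 in the 4 tracks. By that measure Cebpe was not the highest gene in any track. Sfpi1 stood higher in each, at 93.6, 97.8, 96.6 and 97.4 on its own chromosome.

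Irf8 (chromosome 8, 123125001 to 123425000) differed most between tracks. Its mean PC1 over 12 bins was 1.497 ± 0.411 in progenitors, 0.924 ± 0.672 in untreated neutrophils, 1.20 ± 0.352 after 15 min and 1.28 ± 0.466 after 30 min. Untreated neutrophils were the lowest and progenitors the highest, and both activated samples lay between. The bin at the gene position followed the same order, at 1.71 in progenitors, 0.833 in untreated neutrophils, 1.19 after 15 min and 1.41 after 30 min. The untreated mean differed from the progenitor mean by -0.572, with all 12 bins lower. Of all windows in the genome, 4.41% were lower by as much. The 15 min mean was higher than the untreated one by 0.271 and the 30 min mean by 0.356, sizes that 13.5% and 8.97% of all windows reached. Neither activated track was as high as the progenitor track: they differed from it by -0.301 and -0.216.

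The difference at Irf8 was graded along the window. The bins that start below the gene position averaged 1.80 in progenitors, 1.53 in untreated neutrophils, 1.51 after 15 min and 1.63 after 30 min. The gene bin and those above it averaged 1.28, 0.490, 0.971 and 1.03 in the same order. From the left to the right end of the window the untreated track went from 1.78 to -0.214, and the progenitor track from 1.87 to 0.686. The bin from 123375001 to 123400000 held the largest difference of the 100 bins, with a PC1 of 0.824 in progenitors, -0.118 in untreated neutrophils, 0.624 after 15 min and 0.583 after 30 min. This bin and the next, the last of the window, were the 2 of the 100 bins whose sign differed between tracks. Both lay in B in untreated neutrophils and in A in the other 3 tracks. In the RefSeq order Irf8 lies between Cox4i1 and Foxf1.

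**Figure D2:**
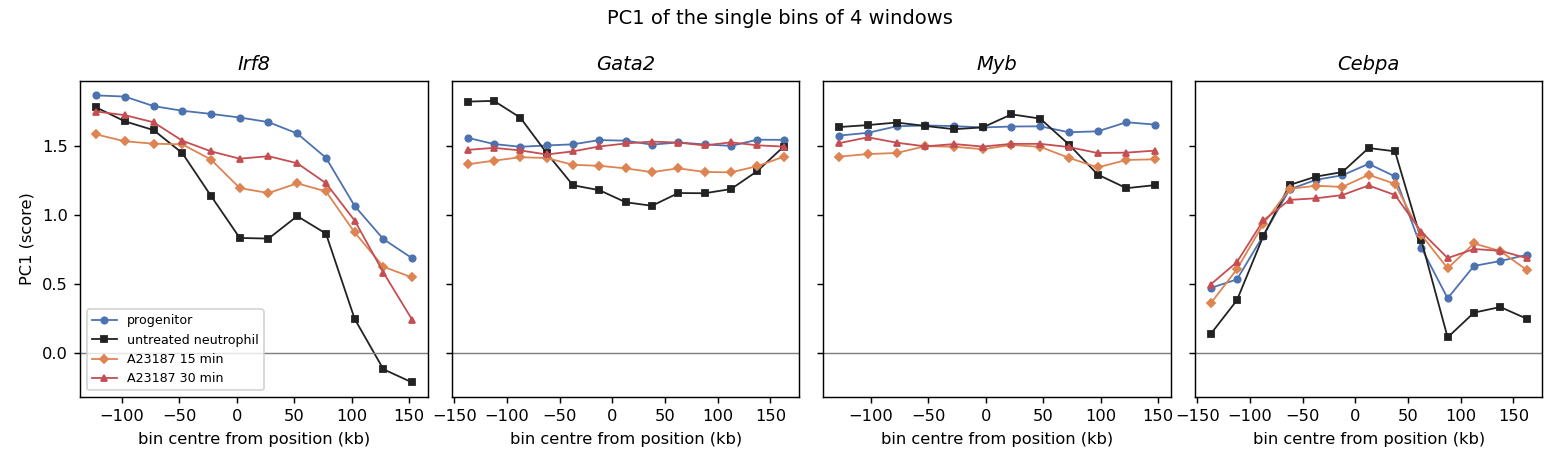
PC1 (a score, vertical axis) of each 25 kb bin against the distance of the bin's centre from the gene position in kb (horizontal axis) for Irf8, Gata2, Myb and Cebpa; each symbol is 1 bin and each line 1 track. The untreated track falls away to the right at Irf8 and ends at -0.214, forms a trough at the position of Gata2, and is lower than the other tracks at the right end of Myb and of Cebpa.

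Among the progenitor factors, Runx1 (chromosome 16, 92550001 to 92875000) had much the same value in each track. Its mean PC1 over 13 bins was 1.45 ± 0.0447 in progenitors, 1.55 ± 0.109 in untreated neutrophils, 1.43 ± 0.0485 after 15 min and 1.44 ± 0.0250 after 30 min. The untreated mean was higher than the progenitor mean by 0.103, and the largest difference of any of its bins between any pair of tracks was -0.189. The surroundings differed more than the window. The left flank averaged 1.38 in progenitors, 0.865 in untreated neutrophils, 1.23 after 15 min and 1.36 after 30 min. The window therefore exceeded its flanks by 0.446 in untreated neutrophils, and by 0.0228, 0.140 and 0.0472 in progenitors, after 15 min and after 30 min. At its lowest, the bin centred 512.5 kb to the left of the gene, the untreated track reached -0.00977 where the progenitor track had 1.02.

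Myb (chromosome 10, 20700001 to 21000000) had a mean PC1 over 12 bins of 1.63 ± 0.0287 in progenitors, 1.54 ± 0.194 in untreated neutrophils, 1.45 ± 0.0504 after 15 min and 1.5001 ± 0.0327 after 30 min. The means lay within 0.184 of each other, and the bin at the gene position was at 1.63 in both the progenitor and the untreated track. The right end of the window stood apart in untreated neutrophils. The 3 bins from 20925001 to 21000000 averaged 1.64 in progenitors, 1.23 in untreated neutrophils, 1.38 after 15 min and 1.46 after 30 min. The other 9 bins averaged 1.62, 1.64, 1.47 and 1.51. In the RefSeq order Ahi1 and Hbs1l are the neighbours of Myb.

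Gata2 (chromosome 6, 88000001 to 88325000) had a mean PC1 over 13 bins of 1.52 ± 0.0207 in progenitors, 1.36 ± 0.274 in untreated neutrophils, 1.36 ± 0.0405 after 15 min and 1.49 ± 0.0283 after 30 min. The equal means of the untreated and 15 min tracks, 0.00149 apart, hid different shapes. The window was flat in the other 3 tracks, and in untreated neutrophils it held a trough around the gene. The bin at the gene position was at 1.54 in progenitors, 1.09 in untreated neutrophils, 1.34 after 15 min and 1.52 after 30 min. The 7 neighbouring bins from 88100001 to 88275000, each lower in untreated neutrophils than in progenitors by 0.25 or more, averaged 1.52 in progenitors, 1.15 in untreated neutrophils, 1.33 after 15 min and 1.51 after 30 min. The 2 bins at the left end, from 88000001 to 88050000, went the other way, at 1.54, 1.82, 1.38 and 1.48. The untreated value at 88175001 to 88200000, 1.07, was the lowest of the window in any track and still far above zero.

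Meis1 (chromosome 11, 18650001 to 18975000) was the one gene of the 8 in compartment B. Its mean PC1 over 13 bins was -1.06 ± 0.0638 in progenitors, -1.11 ± 0.0393 in untreated neutrophils, -1.23 ± 0.0324 after 15 min and -1.06 ± 0.0538 after 30 min. None of the 13 bins was above zero in any track, and the highest bin anywhere was -0.947. On chromosome 11 the window's mean percentile was 22.0, 17.0, 10.1 and 22.1. The B segment around the gene, the run of bins below zero, was 2675, 2625, 2650 and 2675 kb long in the 4 tracks. In all 4 tracks its nearer end lay 975 or 1000 kb from the gene position. The window was lower than its flanks in all 4 tracks, with differences of -0.0481 in progenitors, -0.120 in untreated neutrophils, -0.134 after 15 min and -0.105 after 30 min. In the RefSeq order Meis1 lies between Etaa1 and Spred2.

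Between progenitors and untreated neutrophils, 1 of the 8 genes differed by at least 0.25 PC1 units. It was Irf8, which was lower. In the genome 14.4% of all windows were lower by that much, so 1 gene of 8 is near the background share for that direction. That share counts windows in A and in B alike, while 7 of the 8 genes lay in A. Of the 8 genes 0 were higher by that much, where 13.9% of all windows were. Of the progenitor factors, Runx1 was higher in untreated neutrophils by 0.103, a difference that was 0.00147 in windows of 300 kb and 0.0517 after quantile normalization, while Myb, Gata2 and Meis1 were lower, at -0.0878, -0.164 and -0.0548. That of Gata2 passed 0.25 in windows of 75 kb, at -0.332, and by the median over bins, at -0.299, and was -0.0333 in windows of 300 kb. Among the myeloid factors Sfpi1 and Cebpe were higher by 0.142 and 0.181 and Cebpa and Irf8 lower, at -0.114 and -0.572. The small difference of Cebpa was 0.0209 in windows of 75 kb and 0.0545 by the median over bins, and that of Myb was 0.00495 in windows of 75 kb. The median over the 8 genes was -0.0713, beside 0.0184 over all windows. By single bins, 24 of the 100 were lower by 0.25 or more and 3 were higher, where 15.2% and 14.9% of all bins were. The 24 came from 4 genes, with 9 in Irf8, 7 in Gata2, 5 in Cebpa and 3 in Myb. A bin was called switched where its sign changed and the difference reached 0.5 times the root mean square of the starting track. A neighbouring bin had to do the same. The starting track was the progenitor one in comparisons with progenitors. Otherwise it was the untreated one, or the 15 min one between the activated samples. By that rule 2 member bins, both of Irf8, left A, where 3.13% of all bins did, and 0 entered it, where 1.64% did. Only bins in B can enter A, and in progenitors the member bins in B were the 13 of Meis1. Member counts and genome shares are therefore not of bins equally able to switch, here and in the later comparisons.

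Comparisons of the 15 min and the 30 min track with the untreated one share that track and are given side by side. After 15 min Irf8 was higher by 0.271 and Cebpe was lower, at -0.346. They were the 2 genes that reached 0.25, where 14.9% of all windows were higher and 8.44% lower by that much. After 30 min the same 2 genes reached it, at 0.356 and -0.264, where 13.6% of all windows were higher and 9.95% lower. A share of 1 gene of 8 in each direction is near these background shares. They count windows in A and in B alike, while 7 of the 8 genes lay in A, and no share over A windows was counted. In windows of 300 kb neither gene reached 0.25 after 30 min, at 0.228 for Irf8 and -0.202 for Cebpe, and after quantile normalization Cebpe did not reach it at either time. Gata2 was higher by 0.00149 after 15 min and by 0.135 after 30 min. After 30 min it passed 0.25 in windows of 75 kb, at 0.308, by the median over bins, at 0.281, and after quantile normalization, at 0.251, and it was 0.00913 in windows of 300 kb. Meis1 differed by -0.122 and 0.0519. Of the other genes, Cebpa was higher at both times, by 0.131 and 0.129, though lower in windows of 75 kb, at -0.0133 and -0.0548. Sfpi1, Runx1 and Myb were lower at both times, at -0.160 and -0.100, -0.124 and -0.113, and -0.0963 and -0.0415. With quantile-normalized tracks Sfpi1, Runx1 and Myb were instead higher after 15 min, by 0.0352, 0.0519 and 0.0869, so the direction of these small differences depends on the scale. By single bins, 11 of the 100 were higher after 15 min by 0.25 or more and 15 lower, where 18.1% and 12.8% of all bins were. After 30 min 22 were higher and 13 lower, where 15.9% and 13.4% of all bins were. The 2 switched bins of Irf8 were back in A after 15 min, where 3.29% of all bins switched that way and 0.228% the opposite way. After 30 min they were above zero as well, at 0.583 and 0.241, but no member bin met the switch rule, where 2.80% of all bins entered A and 0.828% left it. In the untreated track the member bins in B, able to enter A, were these 2 of Irf8 and the 13 of Meis1.

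**Figure D3:**
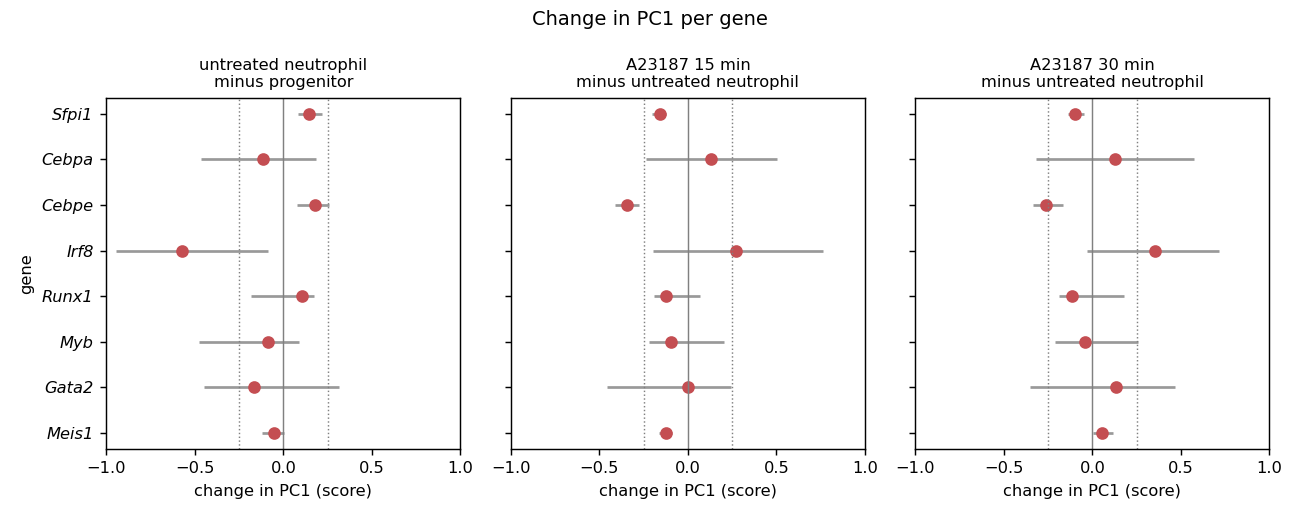
Difference in mean PC1 (a score, horizontal axis) of each of the 8 genes (vertical axis) in 3 comparisons; points are window means, bars run from the lowest to the highest bin of the window, and dotted lines mark 0.25 in either direction. Irf8 stands at -0.572 against progenitors and at 0.271 and 0.356 on activation, and Cebpe at -0.346 and -0.264 on activation; the other 6 points lie within the dotted lines in all 3 panels.

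Between the activated samples, 0 of the 8 genes differed by 0.25 or more, where 6.79% of all windows were higher after 30 min and 12.0% lower. The 30 min value was the higher one for 7 genes, by 0.0110 to 0.174, and Cebpa differed by -0.00220. After quantile normalization Sfpi1, Runx1 and Myb went the other way, at -0.00574, -0.0655 and -0.0105. In windows of 300 kb Irf8 did, at -0.0449, and in windows of 75 kb Runx1 did, at -0.00653. The median over the 8 genes was 0.0707, and 0.0432 over all windows, so most windows were higher at 30 min as well. The exact share of windows was not counted. Over all bins the median was 0.0459 as deposited and 0.00736 after quantile normalization. By single bins 1 was higher and 1 lower by 0.25 or more, where 8.75% and 13.9% of all bins were, and 0 switched in either direction, where 0.939% of all bins entered A and 1.77% left it. Against progenitors, Irf8 was the one gene lower by 0.25 or more after 15 min, where 11.2% of all windows were lower and 16.1% higher. In windows of 300 kb its difference was -0.235. After 30 min 0 genes reached 0.25 in either direction, where 10.6% of all windows were higher and 8.01% lower. Irf8 passed it in windows of 300 kb, at -0.280, and by the median over bins, at -0.273. The median difference of the 8 genes from progenitors was -0.164 after 15 min and -0.0191 after 30 min, beside -0.0535 and -0.0170 over all windows. By single bins 0 were higher and 11 lower by 0.25 or more after 15 min, where 17.0% and 13.4% of all bins were. After 30 min 1 was higher and 3 lower, where 12.5% and 9.95% were. Against progenitors 0 member bins switched at either time. Of all bins 3.25% entered A and 0.616% left it after 15 min, and 1.94% and 0.893% did so after 30 min.

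Between progenitors and untreated neutrophils, stretches beside Irf8, Cebpe and Gata2 crossed zero while the bins at the gene positions stayed in A. In the flanks of the 8 genes, 540 bins within 1 Mb but outside the windows, 36 bins or 6.67% were in A in progenitors and had switched to B in untreated neutrophils, beside 3.13% of all bins. They lay beside Irf8 (17 bins), Cebpe (11) and Gata2 (8). Only bins in A can leave it. On each side of these genes 33 or 34 of 34 flank bins were in A in progenitors, against 43.4% of all windows in the genome. These shares therefore do not compare bins equally able to switch, and the same limit holds for entry into A. After 15 min 35 flank bins or 6.48%, beside 3.29% of all bins, switched from B to A, 17 beside Irf8, 10 beside Cebpe and 8 beside Gata2. After 30 min 20 bins or 3.70% did, beside 2.80% of all bins, 11 beside Cebpe, 5 beside Cebpa and 4 beside Gata2. None beside Irf8 met the rule at that time.

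The flank bins beside Irf8, Cebpe and Gata2 coincide with B domains in the authors' list for the untreated track. That list was made from that track, so its low values there are a description. Beside Cebpa, the 3 switched bins from 36225001 to 36300000 lie in no B domain of the list. To the right of Irf8, the B domain from 123375001 to 123600000 starts inside the gene's window. It had a mean PC1 of 0.595 in progenitors, -0.276 in untreated neutrophils, 0.518 after 15 min and 0.0910 after 30 min. A further one from 123775001 to 124025000 stood at 0.390, -0.348, 0.415 and -0.0678. Both were in A in progenitors and after 15 min, while after 30 min one was near zero and the other below it. To the left of Cebpe, the domain from 54425001 to 54700000 stood at 0.488, -0.388, 0.200 and 0.468. To the right of Gata2, the domain from 88950001 to 89150000 stood at 0.648, -0.266, 0.581 and 0.246. The order of the activated samples was therefore not the same at each: the 15 min value was the higher one beside Irf8 and Gata2, and the 30 min value beside Cebpe.

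**Figure D4:**
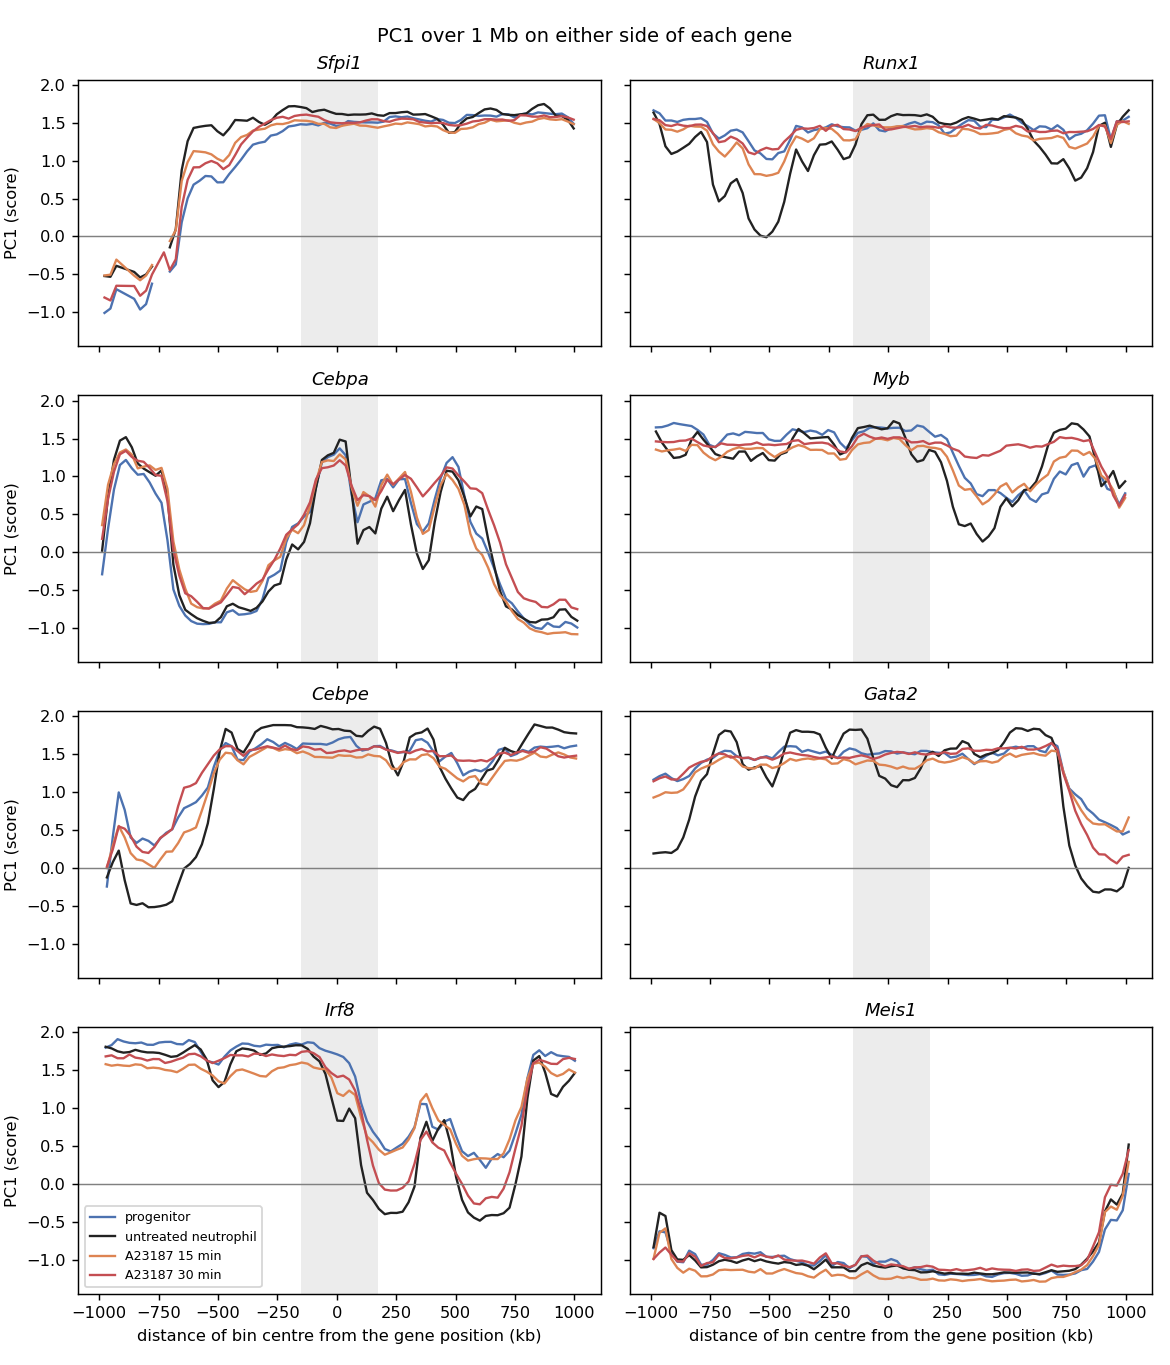
PC1 (a score, vertical axis) against distance from the gene position in kb (horizontal axis) over 1 Mb on either side of the 8 genes; each line is 1 track and the shaded band is the window. Within the band the lines stay above zero except at Meis1 and at the right edge of Irf8, and outside it all 4 lines fall below zero beside Sfpi1 and Cebpa, the untreated line does over a stretch beside Cebpe and Gata2, and the untreated and 30 min lines do beside Irf8.

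The segments of compartment A that hold the 7 genes were shorter in untreated neutrophils than in the other 3 tracks. A segment is the run of bins above zero that contains the gene. The segment of Gata2 spanned 8075 kb in progenitors and 3250 kb in untreated neutrophils, then 7875 and 7800 kb in the 15 min and 30 min tracks. That of Irf8 was 1625 kb in untreated neutrophils, ending 115 kb to the right of the gene position, and 1725 kb after 30 min, while in progenitors and after 15 min it ran for 4275 and 4350 kb to a gap in the data. That of Sfpi1 was 4000, 2175, 4050 and 2300 kb, and that of Cebpa 850, 525, 825 and 950 kb. That of Runx1 was 1950 kb in untreated neutrophils and 4375 to 4450 kb in the others, each up to a gap, and the single bin at -0.00977 made its left end there. That of Myb was 3900 kb in untreated neutrophils and 6250 to 6875 kb in the others, and that of Cebpe 3975 kb and 4300 to 4725 kb. The untreated segment was thus the shortest for 7 of 7 genes. Over the whole genome the same was true of 59.9% of the 37781 bins that are in A in all 4 tracks, whose median segment in the 4 tracks was 2350, 1450, 2400 and 2275 kb.

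Windows were also more uneven in untreated neutrophils. The median SD over bins for the 8 genes was 0.0501 in progenitors, 0.151 in untreated neutrophils, 0.0445 after 15 min and 0.0366 after 30 min. Over all windows it was 0.141, 0.195, 0.168 and 0.111. Over the windows in A in the untreated track it was 0.234, 0.375, 0.212 and 0.159. The median of the 8 genes was below both in each track. The untreated track was the most uneven one for 5 of the 8 genes, Cebpa, Irf8, Runx1, Myb and Gata2. The share of all windows that were most uneven in that track was not counted, so this count has no background beside it. Sfpi1 was most uneven after 30 min, and Cebpe and Meis1 in progenitors, with SDs of 0.0406, 0.0554 and 0.0638. The difference between tracks in unevenness is therefore seen in the genome as a whole and was not tested for these genes.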

How the data were processed

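Per the submitters' processing notes, reads were processed with HiC-Pro, Bowtie2 and HOMER on build mm9; neither versions nor settings are stated there. The authors deposited PC1 as a score at 25 kb spacing, with 50 kb windows per the labels, and a list of A and B domains of the untreated track, each with a domain score that is its mean PC1. Depth is unknown, and its precision cannot be given. Bins were kept where every track had a non-zero score, on chromosomes 1 to 19 and X. The members, gene list and stretches of bins described were chosen with earlier results of these data known. All 8 genes are named. The bin at the gene position is given for Cebpa, Irf8, Myb and Gata2, and the bin that differed most for Cebpa and Irf8. Runs of at least 2 bins past 0.25 and the neighbours in RefSeq order were added after the values were seen. Background shares used every run of 13 bins. No test was made, since each group has 1 track. Window means were tried on simulated tracks with known shifts, and the switch rule on a small made-up example. The simulated noise was independent between bins, unlike that of real neighbouring bins. Alternatives were windows of 75 and 300 kb, medians, quantile normalization, thresholds of 0.15 and 0.5, and 0.25 or 1 times the root mean square. RefSeq tables (GRCm38.p6) gave names, neighbour order and promoters only. The 148 other samples and other transcription factor genes were not analysed here, the latter for want of an mm9 annotation. Python 3.11.15, pandas 2.3.3, numpy 2.4.6 and matplotlib 3.10.9 were used.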

Additional observations from a re-analysis of the deposited data

Results flagged for a closer look

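Meis1 differed from the untreated track in opposite directions at the 2 activation times. Its mean PC1 differed by -0.122 at 15 min, lower in all 13 bins, and by 0.0519 at 30 min, higher in all 13 bins. The 30 min difference minus the 15 min difference was 0.174. Of all windows in the genome, 12.9% were higher at 30 min than at 15 min by as much. The flanks of Meis1 went the same ways as its window, with differences from the untreated track of -0.108 at 15 min and 0.0377 at 30 min. The pattern is thus not particular to the window. After quantile normalization the differences were -0.00239 at 15 min and 0.105 at 30 min, so the size at 15 min depends on the measure. By mean percentile on chromosome 11 the window was still lower at 15 min, at 10.1, beside 17.0 in the untreated track and 22.1 at 30 min. Meis1 was picked out because the single tracks of the 2 times go opposite ways. The difference was not tested, since each time has 1 track and time goes with replicate number.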

How the results depend on the processing

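No paired analysis was possible because libraries were pooled before the tracks were made and the activated groups have 1 sample each, so leaving out a replicate could not be done either. The number of genes in compartment A stayed at 7 in all 4 tracks under the 5 alternatives tried. Counts of genes past the threshold moved as follows, with the reported count first, and were equal to it under every other alternative. Untreated against progenitor: 1, and 2 in 75 kb windows, 2 by medians and 3 at a threshold of 0.15. At 15 min against untreated: 2, and 1 after quantile normalization, 3 at 0.15 and 0 at 0.5. At 30 min against untreated: 2, and 3 in 75 kb windows, 3 by medians, 0 in 300 kb windows and 0 at 0.5. Between 30 and 15 min: 0, and 1 at 0.15. At 15 min against progenitor: 1, and 0 in 300 kb windows, 5 at 0.15 and 0 at 0.5. At 30 min against progenitor: 0, and 1 in 300 kb windows, 1 by medians and 1 at 0.15. Switched bins were 2 between progenitor and untreated and 2 at 15 min, and 0 in both where the change had to reach 1 times the root mean square. At 30 min they were 0, and 2 at 0.25 times it. After 30 min the count of 2 under quantile normalization held Irf8 and Gata2 (0.251) and not Cebpe. Differences of single genes moved by more than 1 SD over bins, which is no replicate error, in 32 of 192 values under alternatives, and levels in 19. Of the 192, 29 changed sign, 15 of them under quantile normalization, and 0 of the 29 had reached 0.25. Causes were not tested. Depth is unknown, so no limit from it can be given.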
